A study of Mus musculus with 12 samples.

Results

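Serum response factor (Srf) and 9 genes of the actin cytoskeleton, Actb, Actg1, Acta2, Tagln, Cnn1, Cnn2, Tpm1, Myl9 and Vcl, were followed through all 4 conditions of an RNA-Seq experiment on mouse embryonic fibroblasts (MEFs). They were taken by name from the table of read counts, where they are 10 of 24062 gene symbols. The control line, shRenilla, carries an shRNA against Renilla luciferase, which mouse cells do not have, and the knockdown line, shBruce, carries 1 shRNA (shBruce#1) against Birc6, the gene of the giant ubiquitin ligase BRUCE. Each line was kept in fully supplemented medium (FM) or placed for 2 h in a medium without serum and amino acids (Starv), with 3 replicates in each of the 4 conditions. There was 1 line for each shRNA, so other differences between the lines cannot be told apart from the knockdown. None of the sources used here states whether replicates were separate cultures, so p-values measure only the spread between these libraries, which may be technical.

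SRF is a transcription factor that binds a short DNA element, the CArG box, as a dimer. One class of partners, the myocardin-related factors MRTF-A and MRTF-B (Mkl1 and Mkl2), is held by monomeric actin and released when actin assembles into filaments. Through them SRF drives genes of actin, its binding proteins and the adhesions that anchor filaments. Another class, the ternary complex factors (Elk1, Elk3 and Elk4), links SRF to growth factor signalling and to immediate-early genes. Serum is a classical stimulus of both arms in fibroblasts, and Srf is itself one of the genes that SRF binds.

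To show where the element lies in these genes, promoters of 250 bases before and 50 bases after the transcription start were taken from RefSeq (GRCm38.p6). Promoters of 8 of the 10 genes were found there, all but Actb and Tagln. The CArG box was searched on both strands in the bases before the start. An exact box was present in 5 of the 8, Srf (2 boxes), Actg1, Vcl, Cnn2 and Myl9, and in 482 of 32851 promoters overall (1.467%). Acta2 and Tpm1 each held 2 boxes with 1 mismatch, and Cnn1 held neither form. Boxes with up to 1 mismatch were present in 18.62% of all promoters. Of the boxes with 1 mismatch, only the first of Acta2 is printed below, and its other one lies at −34 to −25. The stretches below are given 5′ to 3′ on the strand of the gene, with the box in capitals. A match of letters is a description and does not show that SRF is bound there.
Srf, chr17:46556195-46556264, minus strand: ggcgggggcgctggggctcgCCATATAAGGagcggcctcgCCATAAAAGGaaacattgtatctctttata
Actg1, chr11:120348556-120348605, minus strand: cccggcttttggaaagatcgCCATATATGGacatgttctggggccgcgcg
Acta2 (1 mismatch), chr19:34255428-34255477, minus strand: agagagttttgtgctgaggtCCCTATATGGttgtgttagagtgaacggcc
Vcl, chr14:20929151-20929200, plus strand: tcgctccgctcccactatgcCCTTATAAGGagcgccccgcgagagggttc
Cnn2, chr10:79988524-79988573, plus strand: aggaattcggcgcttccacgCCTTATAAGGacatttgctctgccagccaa
Myl9, chr2:156775283-156775332, plus strand: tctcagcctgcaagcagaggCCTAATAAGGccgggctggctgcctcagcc
The boxes of Srf span −82 to −53 from the start, that of Cnn2 −56 to −47, that of Actg1 −90 to −81, that of Acta2 −84 to −75, that of Myl9 −161 to −152 and that of Vcl −227 to −218. Vcl and Cnn2 hold the same 10 letters in the box. Positions are counted from the RefSeq start. For Acta2 the span given below, from the GENCODE annotation, begins further upstream, so that its box lies inside that span.

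Total counts per library lay between 7717265 and 18510540, with the lowest in shBruce Starv replicate 1. Normalized counts are counts scaled by TMM to a common library size, the geometric mean over the 12 libraries. The counts were fitted jointly over the 12154 genes that passed the filter on low counts with edgeR's quasi-likelihood test. A gene was called at a Benjamini-Hochberg adjusted p under 0.05. Birc6, the target of the shRNA, had normalized counts of 4682, 3273 and 5061 in shRenilla FM against 1207, 1265 and 1390 in shBruce FM, and of 4759, 4712 and 2787 in shRenilla Starv against 1175, 703 and 1226 in shBruce Starv. The groups did not overlap in either medium. The fitted log2 fold change was −1.75 in FM (SE 0.25, edgeR adjusted p = 0.0627) and −1.98 in Starv (SE 0.25, edgeR adjusted p = 0.0186). Of 10 fibroblast markers, Col1a1, Col1a2, Vim, Fn1 and S100a4 had at least 7626 raw counts in every library, whereas Thy1 (0 to 3), Lum (0 to 1) and Dcn (7 to 25) were near 0. Of the epithelial, endothelial, skeletal muscle, leukocyte and pluripotent markers, the epithelial Krt19 was clearly expressed (275 to 844 raw counts). The others were lower, with Cd68 (29 to 126) the highest among them and Cd3e at 0 throughout.

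The libraries of shBruce stood apart in ways that touch these genes. In shBruce Starv the median coefficient of variation of the 9 tested members was 45.1%, against 6.94% in shRenilla FM, 9.50% in shRenilla Starv and 7.18% in shBruce FM. Over all tested genes it was 22.3% in shBruce Starv and between 8.19% and 11.3% in the other conditions. Replicate 3 of shBruce had low Acta2, Tagln and Myl9 in both media, as described below. Each count of calls is therefore also given without both replicate 3 libraries of shBruce, an alternative added after the data had been seen.

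The levels of the 10 genes ranged over more than 4 orders of magnitude when compared per length of transcript. In shRenilla FM, Actb, which encodes cytoplasmic β-actin, had 49520 ± 3819 normalized counts per kb (SD, n = 3). Tpm1, a tropomyosin that lies along the filament, followed with 9398 ± 303. Cnn2, a calponin of non-muscle cells, had 4004 ± 179 and Vcl, which encodes the adhesion protein vinculin, 3834 ± 421, and these neighbours differed by less than the spread of Vcl. Below them came Tagln (2494 ± 173), which encodes the actin-binding protein transgelin, Acta2 (1020 ± 95.2), the smooth muscle α-actin gene, and Srf (799 ± 51.5). Myl9, a myosin regulatory light chain gene, had 344 ± 49.1 and Actg1, the gene of cytoplasmic γ-actin, 127 ± 7.36 normalized counts per kb. Cnn1, the smooth muscle calponin gene, had 1.74 ± 0.62.

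The level of Actg1 is uncertain on this scale. Of the 50-base windows of its transcript, 56.7% occur without change in transcripts of 22 other genes, among them the pseudogenes Gm12715, Gm8399 and Actg-ps1. The same holds for 14.2% of the windows of Actb and 0.35% of those of Acta2. The counting could split or drop such reads. For Vcl, 39.2% of the windows overlap Ap3m1 on the opposite strand, and for Tagln 48.3% overlap Gm48529 or Pcsk7 on the opposite strand, and the strand setting of the counting is not given in the sources used here. No window of Srf, Cnn1, Cnn2, Tpm1 or Myl9 was shared.

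**Figure D1:**
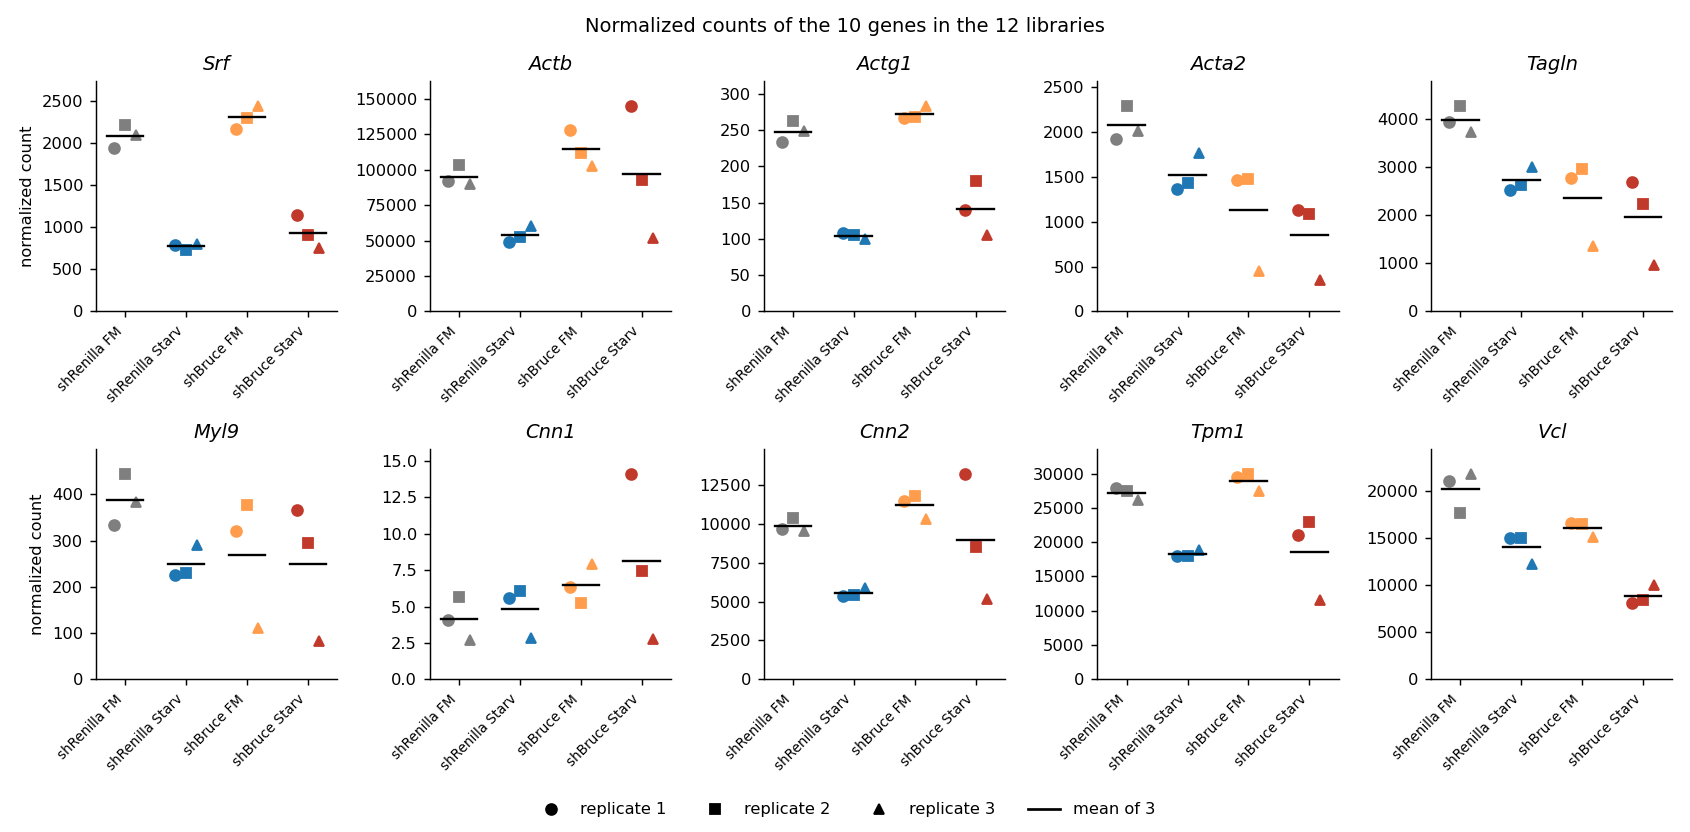
Normalized counts (y axis, linear from 0, a separate scale for each gene) of the 10 genes in the 12 libraries, by condition (x axis). Symbols mark the replicate number and bars the mean of 3; the Srf counts of both Starv conditions lie under those of both FM conditions, and the replicate 3 libraries of shBruce lie lowest for Acta2, Tagln and Myl9.

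Starvation lowered Srf in the control line. Srf (chromosome 17, 46548329 to 46556175, minus strand, GRCm38) had normalized counts of 1948, 2217 and 2101 in shRenilla FM and of 789, 729 and 800 in shRenilla Starv. Every starved library was lower than every fed one by more than the spread of either group, and Srf fell 2.70-fold (log2 fold change −1.43, SE 0.14, edgeR adjusted p = 2.66e-05). In these bulk samples, fewer expressing cells and less RNA per cell cannot be told apart. The call held in all 23 alternatives, with log2 fold changes between −1.48 and −1.35.

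Of the cytoplasmic actins, Actg1 (chromosome 11, 120345690 to 120348542, minus strand) had normalized counts of 233, 262 and 248 in shRenilla FM and 109, 105 and 99.96 in shRenilla Starv. It fell 2.37-fold (log2 fold change −1.25, SE 0.17, edgeR adjusted p = 3.45e-04), also in all 23 alternatives. Actb (chromosome 5, 142903115 to 142906754, minus strand), often used as a reference gene, had 91728, 103487 and 90019 in FM and 48890, 52333 and 60077 in Starv. These groups did not overlap either. The fitted log2 fold change of Actb was −0.82 (95% confidence interval −1.40 to −0.25), with an edgeR adjusted p of 0.0503 that lay just outside the threshold. It passed in 9 of the 23 alternatives (edgeR, DESeq2 or limma adjusted p from 1.03e-04 to 0.163).

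Of the contractile members, Cnn2, Tpm1, Acta2, Tagln and Myl9 were lower in every starved shRenilla library than in every fed one, with fitted differences smaller than that of Srf. Cnn2 (chromosome 10, 79988584 to 79996062, plus strand) went from 9663, 10351 and 9533 to 5353, 5400 and 5890 normalized counts. It fell 1.77-fold (log2 fold change −0.83, SE 0.24, edgeR adjusted p = 0.0304). Tpm1 (chromosome 9, 67022590 to 67049406, minus strand) went from 27897, 27392 and 26193 to 18040, 17984 and 18785, the smallest coefficients of variation of the 10 genes in this line. Its log2 fold change of −0.57 (SE 0.19) had an edgeR adjusted p of 0.0577. Without both replicate 3 libraries of shBruce, which do not belong to this comparison but enter the shared estimate of the spread, that value was 5.66e-04.

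Acta2 (chromosome 19, 34241090 to 34255590, minus strand) had normalized counts of 1921, 2293 and 2011 in shRenilla FM and 1365, 1432 and 1764 in shRenilla Starv. Tagln (chromosome 9, 45929619 to 45936058, minus strand) had 3941, 4270 and 3721 against 2514, 2632 and 3008. Myl9 (chromosome 2, 156775420 to 156781658, plus strand) had 335, 445 and 384 against 227, 230 and 291. The groups of the 3 genes did not overlap, yet none passed, with log2 fold changes of −0.45 (SE 0.41) for Acta2, −0.55 (SE 0.32) for Tagln and −0.64 (SE 0.45) for Myl9. Their edgeR adjusted p was 0.493, 0.261 and 0.361 in the joint fit, and 0.0121, 0.00293 and 0.00691 without both replicate 3 libraries of shBruce. Cnn1 (chromosome 9, 22099216 to 22109630, plus strand) did not pass the filter on low counts, with a total of 14 raw counts over the 3 libraries of shRenilla FM and 17 over those of shRenilla Starv. Its groups overlapped, and it was not tested.

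Vcl (chromosome 14, 20929398 to 21033676, plus strand) links actin filaments to integrin adhesions. Its normalized counts were 21065, 17675 and 21843 in shRenilla FM and 15028, 15029 and 12209 in shRenilla Starv. It fell 1.43-fold (log2 fold change −0.52, SE 0.13, edgeR adjusted p = 0.0176).

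In all, 4 of the 9 tested members (Srf, Actg1, Cnn2 and Vcl) were called lower and 0 higher in starved shRenilla MEFs, where 7.27% of all tested genes were called lower, 9.69% higher and 17.0% in either direction. The median log2 fold change of the 9 was −0.64, against −0.01 over all tested genes. All 9 were non-overlapping and lower, as were 26.5% of all tested genes. An exact permutation test of a single gene cannot go below a two-sided p of 0.1 with 3 libraries against 3, and each of the 9 reached it. Without both replicate 3 libraries of shBruce, or with the 6 shRenilla libraries fitted alone, all 9 were called lower, as 29.0% and 41.9% of all genes then were in either direction. Leaving out shRenilla FM replicate 1, shRenilla FM replicate 3 or shRenilla Starv replicate 3 left 2 calls, Srf and Actg1. In these fits 9.94%, 9.74% and 12.2% of all genes were called in either direction.

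Srf fell in the knockdown line as well. Its normalized counts were 2175, 2303 and 2448 in shBruce FM and 1142, 913 and 751 in shBruce Starv, without overlap. The fall was 2.48-fold (log2 fold change −1.31, SE 0.14, edgeR adjusted p = 4.80e-05). Actg1 had 267, 268 and 284 in FM and 139, 179 and 105 in Starv, a 1.93-fold fall (log2 fold change −0.95, SE 0.17, edgeR adjusted p = 0.00181). Both were called in all 23 alternatives.

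Of the 4 comparisons, the fitted difference of Vcl was largest here. Its normalized counts were 16628, 16493 and 15132 in shBruce FM and 8133, 8464 and 10057 in shBruce Starv. It fell 1.81-fold (log2 fold change −0.86, SE 0.13, edgeR adjusted p = 7.18e-04), in all 23 alternatives. Tpm1 had 29444, 29984 and 27447 in FM and 21015, 22886 and 11608 in Starv, so that the groups did not overlap but replicate 3 lay far below the other two. It fell 1.56-fold (log2 fold change −0.65, SE 0.19, edgeR adjusted p = 0.0278). Tpm1 was no longer called without shBruce FM replicate 1 (−0.64, edgeR adjusted p = 0.0738) or shBruce FM replicate 2 (−0.62, edgeR adjusted p = 0.0787), nor with upper-quartile normalization (−0.56, edgeR adjusted p = 0.0504) or with the 6 shBruce libraries fitted alone (−0.63, edgeR adjusted p = 0.161).

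The other 5 tested members overlapped between fed and starved shBruce libraries. Actb had normalized counts of 128300, 111776 and 102691 in FM and of 145132, 93000 and 51782 in Starv, a span in Starv that took in the whole of FM. Its log2 fold change was −0.24 (95% confidence interval −0.81 to 0.33). Cnn2 had the same layout, with 11444, 11817 and 10277 in FM and 13228, 8536 and 5172 in Starv, and a log2 fold change of −0.32 (95% confidence interval −0.83 to 0.19). Both depended on single libraries, which moved the values in opposite directions. Without shBruce Starv replicate 1, the library of lowest depth, the log2 fold change was −0.67 for Actb (edgeR adjusted p = 0.0294) and −0.72 for Cnn2 (edgeR adjusted p = 0.00809). Without shBruce Starv replicate 3 it was 0.06 for Actb and −0.04 for Cnn2.

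Acta2 had normalized counts of 1465, 1474 and 448 in shBruce FM and 1128, 1087 and 353 in shBruce Starv. Tagln had 2777, 2953 and 1363 against 2681, 2236 and 973, and Myl9 had 322, 377 and 110 against 367, 296 and 82.7. In each of these genes replicate 3 was the lowest library of both media, and the 3 did not pass in the joint fit (log2 fold changes −0.41, −0.27 and −0.15, edgeR adjusted p from 0.515 to 0.847). Without both replicate 3 libraries, Acta2 was called lower (−0.41, edgeR adjusted p = 0.0455), and Tagln (−0.23) and Myl9 (−0.09) were not. Cnn1 had totals of 19 and 17 raw counts over the 3 libraries of each medium.

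Thus 4 of the 9 tested members (Srf, Actg1, Vcl and Tpm1) were called lower and 0 higher in starved shBruce MEFs, where 10.6% of all tested genes were called lower, 12.4% higher and 23.0% in either direction. The median log2 fold change of the 9 was −0.41, against 0.02 over all tested genes. The same 4 genes were the ones whose groups did not overlap, which was so with a lower level for 14.8% of all tested genes. Without both replicate 3 libraries 5 members were called, Acta2 being the addition, and so were 31.9% of all genes in either direction. Srf, Actg1 and Vcl were the 3 members called lower in both lines. The share of all tested genes called lower in both lines was not computed, so this count has no background beside it.

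**Figure D2:**
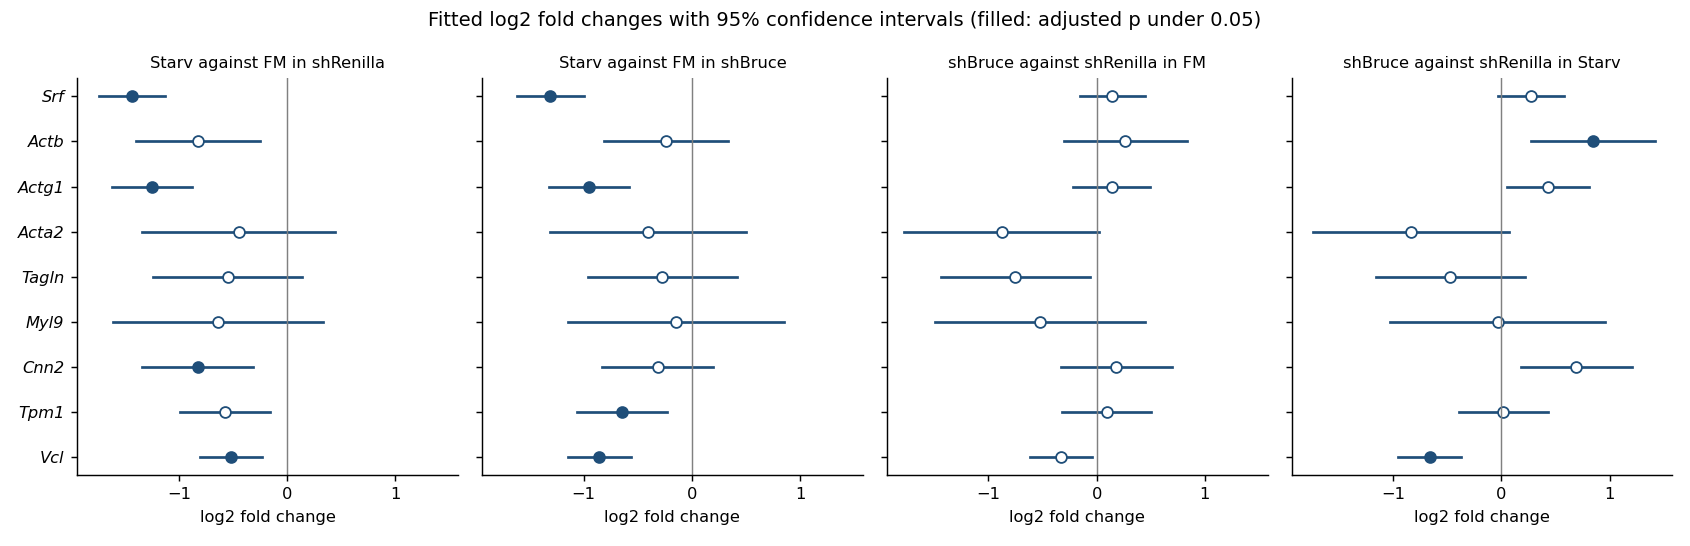
Fitted log2 fold changes (x axis, points) with 95% confidence intervals (lines) of the 9 tested genes in 4 comparisons from edgeR's joint fit; filled points passed an adjusted p of 0.05. Every point of the starvation comparisons lies under 0, with Srf lowest at −1.43 and −1.31, while the line comparison in Starv holds Actb at 0.85 and Vcl at −0.66 as the called members.

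Whether starvation acted differently in the 2 lines was tested with the interaction of line and medium. None of the 9 members passed, as none of the 12154 genes did in edgeR's test, where 474 genes and 0 members had an unadjusted p under 0.05. The interaction was 0.13 on the log2 scale for Srf (95% confidence interval −0.30 to 0.55). It was largest for Actb at 0.58 (edgeR unadjusted p = 0.145 and adjusted p = 0.806, with an interval at 95% of −0.23 to 1.39) and Cnn2 at 0.51 (−0.21 to 1.23). For Vcl it was −0.34 (−0.74 to 0.07, edgeR unadjusted p = 0.097 and adjusted p = 0.806). These intervals leave room for differences between the lines as large as many of the starvation effects themselves. No alternative called a member.

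In FM, the lines differed by no member at the threshold. Srf was close in both lines, with a log2 fold change of shBruce over shRenilla of 0.14 (95% confidence interval −0.15 to 0.44) that turned to −0.07 once trends with transcript length and GC content were removed. Acta2 (1921, 2293 and 2011 against 1465, 1474 and 448 normalized counts), Tagln (3941, 4270 and 3721 against 2777, 2953 and 1363) and Vcl (21065, 17675 and 21843 against 16628, 16493 and 15132) were lower in every shBruce library than in every shRenilla one. The log2 fold changes were −0.88 (SE 0.42) for Acta2, −0.75 (SE 0.32) for Tagln and −0.33 (SE 0.13) for Vcl, with edgeR adjusted p of 0.355, 0.322 and 0.316. Without both replicate 3 libraries they were −0.50, −0.47 and −0.29. Actg1 was higher in every shBruce library, by 0.14 on the log2 scale, a sign that turned (−0.02) with those trends removed. In edgeR's test 0% of all tested genes were called in FM, 1750 genes had an unadjusted p under 0.05, and 2 members did, Tagln and Vcl. Non-overlap with a lower shBruce level, as seen in 3 of 9 members, occurred in 17.0% of all tested genes, and with a higher one, as in Actg1, in 16.4%.

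In Starv, Vcl was called lower and Actb higher in the knockdown line, calls that held in 18 and 10 of the 23 alternatives. The starved Vcl counts were 15028, 15029 and 12209 in shRenilla and 8133, 8464 and 10057 in shBruce, without overlap, and Vcl was 1.59-fold lower (log2 fold change −0.66, SE 0.13, edgeR adjusted p = 0.0225). Actb had 48890, 52333 and 60077 in shRenilla and 145132, 93000 and 51782 in shBruce. Its log2 fold change was 0.85 (SE 0.27, edgeR adjusted p = 0.0388), although shBruce replicate 3 lay within the shRenilla range. Cnn2 overlapped too, with 5353, 5400 and 5890 against 13228, 8536 and 5172, so that shBruce replicate 3 lay under the shRenilla range. Its log2 fold change was 0.69 (edgeR adjusted p = 0.0504). Without shBruce Starv replicate 1 the value for Actb was 0.41 (edgeR adjusted p = 0.16), and for Cnn2 0.29 (edgeR adjusted p = 0.226).

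Srf in Starv was 0.27 on the log2 scale above the control line (95% confidence interval −0.03 to 0.58), and −0.15 with the length and GC trends removed. Actg1 was 0.43 above it (95% confidence interval 0.05 to 0.81, edgeR adjusted p = 0.0861). Acta2 was lower in every shBruce library (1365, 1432 and 1764 against 1128, 1087 and 353), by −0.84 on the log2 scale (SE 0.42, edgeR adjusted p = 0.151). For Tagln the difference was −0.47 (95% confidence interval −1.16 to 0.22), for Tpm1 0.02 (−0.39 to 0.43) and for Myl9 −0.03 (−1.03 to 0.96). Tpm1 and Myl9 changed sign under several alternatives. Vcl and Acta2, 2 of the 9 members, were lower without overlap, as were 18.5% of all tested genes.

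The starved line comparison thus held 1 member higher and 1 lower of 9, where 23.9% of all tested genes were called in either direction, 12.8% higher and 11.2% lower. That share is near the background and is no result about the members. The slope of log2 counts per doubling of transcript length was 0.0335 to 0.215 in the shRenilla Starv libraries and −0.238 to 0.0385 in the shBruce Starv libraries. The transcript of Vcl is the longest of the 10 genes at 5267 bases. With each library's trends with length and GC content removed, 558 genes were called in place of 2907. Vcl remained lower at −0.37 (edgeR adjusted p = 0.0397), and Actb was 0.61 (edgeR adjusted p = 0.127). Without both replicate 3 libraries 7 members were called, 5 of them higher (Actb, Cnn2, Actg1, Srf and Tpm1) and Vcl and Acta2 lower, while 50.2% of all genes were. Fitted on the 6 Starv libraries alone, 0 members and 0% of all genes were called.

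Replicate 3 of shBruce carried 3 of the genes down together. As a percentage of the mean of replicates 1 and 2 of its own condition, it held 30.5% of Acta2, 47.6% of Tagln and 31.5% of Myl9 in FM. In Starv it held 31.9% of Acta2, 39.6% of Tagln and 24.9% of Myl9. A replicate 3 under 50% in both media of shBruce was found in 91 of the 12154 tested genes (0.749%), and in both media of shRenilla in 4 genes (0.0329%). Actb (43.5%) and Cnn2 (47.5%) were this low in Starv but not in FM, where they stood at 85.5% and 88.4%, and Srf stood at 73.1% in Starv and 109% in FM. Vcl was not low, at 121% in Starv and 91.4% in FM. The markers of smooth muscle cells other than the members, Myh11, Des, Lmod1, Myocd, Synpo2 and Actg2, had 0 to 34 raw counts in any library, and the summed level of the 7 markers, mostly Smtn, ranged from 1416 to 2419 in shBruce FM and from 988 to 1173 in shBruce Starv, against 1954 to 2078 in shRenilla FM and 1178 to 1266 in shRenilla Starv. Their part in the result was not tested.

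**Figure D3:**
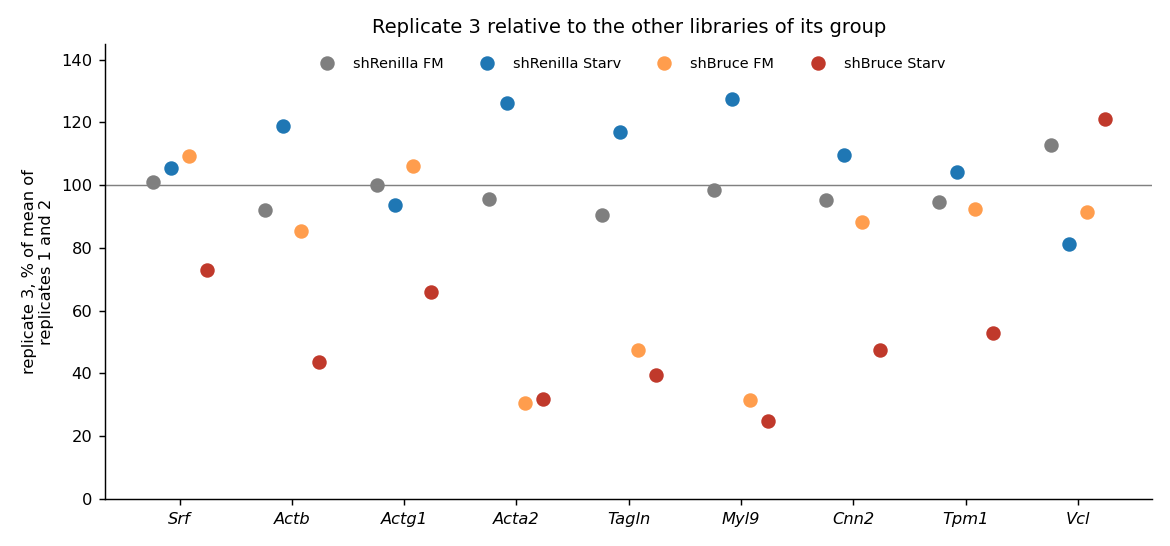
Replicate 3 of each condition as a percentage of the mean of replicates 1 and 2 (y axis), for the 9 tested genes (x axis), with a colour for each condition. Acta2, Tagln and Myl9 sit between 24.9% and 47.6% in both shBruce conditions, and Actb, Cnn2 and Tpm1 fall to between 43.5% and 52.9% in shBruce Starv.

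The genes whose profile over the 12 libraries lay nearest to that of Srf were Dok1, Tnfrsf12a, Nfkbie, Snora41 and Twist2, by the root-mean-square difference of centred log2 values (0.13 to 0.18, where Srf itself had an SD of 0.74). None of the 5 belongs to the lists used here, and Snora41 was low, with a mean normalized count of 11.2. Those nearest to Acta2 were Tagln (0.24), Myl9 (0.32), Acta1 (0.32), Igfbp7 (0.33) and Col5a3 (0.33), against an SD of 0.83. The profiles share the 12 libraries and their scaling, and no test was made.

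Other genes of the pathway were described by lists written from general knowledge. Like the members, these lists were chosen with earlier results of these data known, so they are a description and no independent test. Their counts stand beside 7.27% of all tested genes called lower by starvation in shRenilla MEFs and 10.6% in shBruce MEFs, with medians over all tested genes of −0.01 and 0.02. Of 35 further contractile and adhesion genes that SRF or its partners are known to drive, all tested, 18 were called lower and 0 higher by starvation in shRenilla MEFs, with a median log2 fold change of −0.48. In shBruce MEFs 16 were called lower and 0 higher, with a median of −0.43. With the 6 shRenilla libraries fitted alone, where 41.9% of all genes were called in either direction, 28 of the 35 were called lower. The deepest falls in shRenilla MEFs were those of Cyr61 (normalized counts 12410 ± 1237 to 1486 ± 74.8, SD, n = 3, 8.35-fold) and Ctgf (10530 ± 832 to 1401 ± 25.7, 7.51-fold), which encode secreted matricellular proteins, and of Ankrd1, a muscle ankyrin repeat gene (1060 ± 86.3 to 221 ± 15.2, 4.79-fold). In shBruce MEFs they were Cyr61 (11.3-fold), Ctgf (10.1-fold) and Thbs1 (32130 ± 2982 to 5986 ± 1173, 5.37-fold), which encodes thrombospondin 1. Cyr61, Ctgf, Ankrd1 and Thbs1 are also well known targets of YAP and TEAD.

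Of 10 immediate-early genes bound by SRF, 9 were tested. In shRenilla MEFs 6 were called lower and 0 higher, with a median log2 fold change of −1.42, and in shBruce MEFs 5 were called lower and 0 higher, with a median of −0.95. The nuclear receptor gene Nr4a1 fell 5.61-fold in shRenilla MEFs and 6.53-fold in shBruce MEFs, the AP-1 subunit gene Fosb 4.96-fold and 3.27-fold, and the zinc finger gene Egr3 3.84-fold and 2.69-fold. Srf, itself an immediate-early gene, fell 2.70-fold and 2.48-fold.

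Of 8 cofactors of SRF, 7 were tested, and 2 were called lower in each line, while the median log2 fold change was 0.15 in shRenilla MEFs and −0.01 in shBruce MEFs. Fhl2, a LIM protein gene that is also a target of SRF, fell 2.46-fold in both lines. Elk3 was called lower in shRenilla MEFs (log2 fold change −0.51) and Mkl1, the gene of MRTF-A, in shBruce MEFs (−0.51). Myocd, the gene of myocardin itself, had at most 2 raw counts in any library.

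Of 16 genes of actin polymerisation, 3 were called lower in each line. On the log2 scale they were Arpc5 (−0.99) and Arpc4 (−0.58) of the Arp2/3 complex and Tmsb4x (−0.87), which encodes the actin monomer buffer thymosin β4, in shRenilla MEFs, and Cap1 (−0.66), Arpc5 (−0.66) and Actr2 (−0.47) in shBruce MEFs. Of 9 muscle genes, 6 were tested, and Smtn, the smoothelin gene, was called lower in both lines (−0.75 and −0.90). No gene of these lists was called higher by starvation in the joint fit of all 12 libraries. In shRenilla MEFs 1 cofactor was called higher without both replicate 3 libraries of shBruce, with length and GC trends removed, or with the 6 shRenilla libraries fitted alone. In these fits 29.0%, 24.4% and 41.9% of all genes were called in either direction. In shBruce MEFs 1 polymerisation gene was called higher without both replicate 3 libraries, and 1 contractile and adhesion gene with length and GC trends removed. In each of these fits 31.9% of all genes were called in either direction. With the 6 shRenilla libraries fitted alone, 10 of the 16 polymerisation genes were called lower in shRenilla MEFs, beside 41.9% of all genes in either direction. With the 6 shBruce libraries fitted alone, where 8.11% of all genes were called, 0 of the 16 were called in shBruce MEFs, and 3 of the 9 immediate-early genes were.

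**Figure D4:**
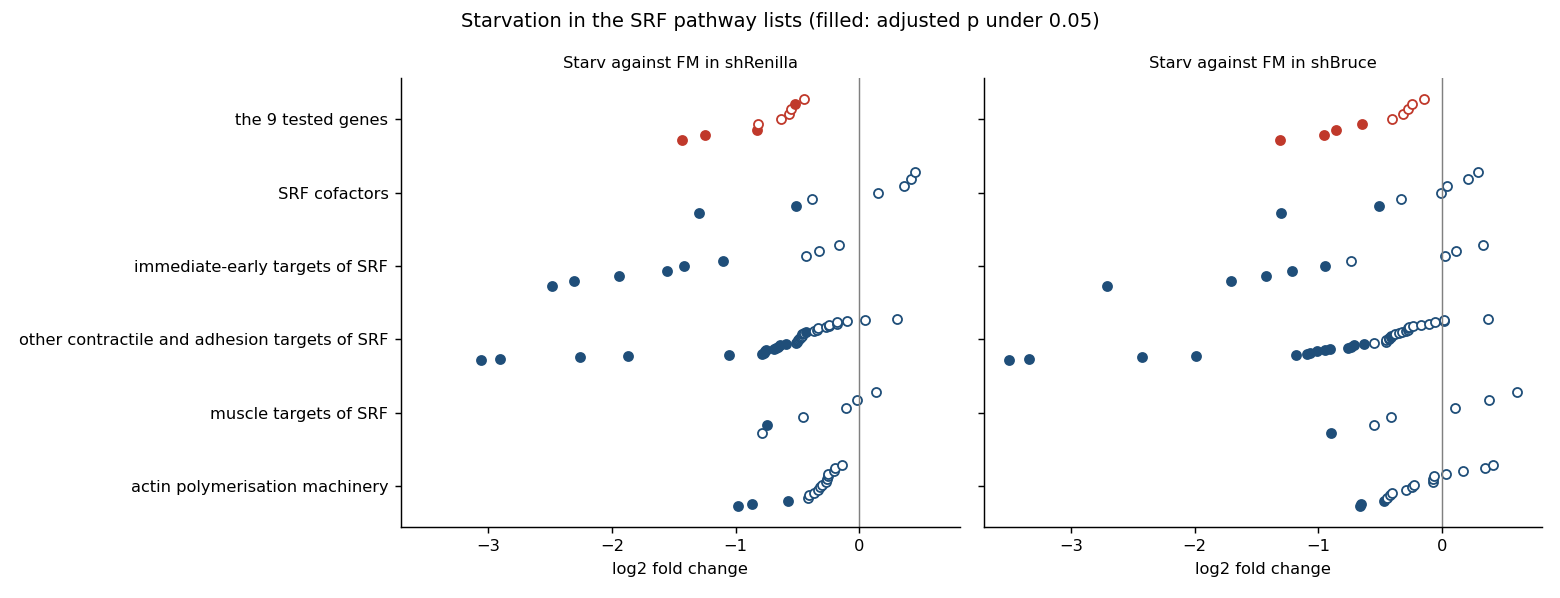
Log2 fold changes of starvation (x axis) in shRenilla (left) and shBruce MEFs (right) for the 9 tested genes (red) and 5 lists of the pathway (blue, rows), each point a gene; filled points passed an adjusted p of 0.05. The filled points all lie under 0, and the lowest are Cyr61 at −3.06 and −3.50.

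Between the lines, no gene of these lists was called in FM or by the interaction in edgeR's test. In Starv, 11.2% of all tested genes were called lower in shBruce MEFs and 12.8% higher. Some shares of the lists lay above these and some below, and the counts are given as a description. Of the 35 contractile and adhesion genes, 9 were called lower (Ctgf −1.04, Mical2 −0.81 and Filip1l −0.78 on the log2 scale were the lowest) and 2 higher, the tropomyosin gene Tpm2 (0.65) and the α-actinin gene Actn4 (0.53). Of the polymerisation genes, Arpc1b (1.14), the profilin gene Pfn1 (0.88) and the capping protein gene Capzb (0.47) were called higher and Actr2 (−0.60) lower. Among the cofactors Elk4 (−1.03), Scai (−0.94) and Mkl2 (−0.79) were called lower. Of the immediate-early genes, Ier2 (0.72) and Junb (0.58) were called higher. With length and GC trends removed, where 4.59% of all genes were called, 3 of the 35 contractile and adhesion genes were called lower and 0 higher, 0 immediate-early genes were called, and 1 polymerisation gene was called higher. With the 6 Starv libraries fitted alone, 0 genes of these lists and 0% of all genes were called.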

How the data were processed

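The authors extracted total RNA (TRIzol), removed DNA, selected poly(A) RNA and sequenced single-end reads with a read length of 50. According to the submitters' processing notes and the methods, reads were mapped to mm10 with STAR 2.4.0d and counted per gene with HTSeq 0.5.4p3 after reads of rRNA had been removed. The annotation, strand setting and overlap mode are not given in the sources used here. The deposited values are raw counts per gene, without normalization, of which 0 columns were unused and 27 symbols, with 0.296% of counts, had become dates.

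Counts were fitted with edgeR 4.0.16 (R 4.3.3) with TMM normalization, filterByExpr, a mean for each of the 4 conditions over 12 libraries and the two-sided quasi-likelihood test, adjusted over all tested genes. A test on simulated counts recovered 67 of 90 genes changed 1 log2 unit and 106 of 110 changed 2 log2 units in the shRenilla starvation comparison, with 10 false calls among 12071 genes. Between replicates of a condition the chi-square per degree of freedom was 2.21 to 95.7, so no library was counted as a duplicate, and the precision of a value is its SD or SE rather than its counting error.

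Alternatives were DESeq2 1.42.0 (size factors, and its Wald test), upper-quartile normalization, limma-voom (limma 3.58.1, the study's own method), no filter, at least 10 counts in every sample, a block for the replicate number, a fit of the groups compared alone, length and GC trends removed (splines with 4 degrees of freedom), each library left out, and both replicate 3 libraries of shBruce left out. Positions and lengths are from GENCODE M21 (GRCm38), in which 22724 symbols were found as written and 915 under an older symbol.

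All 10 genes, Birc6, up to 3 rising and 3 falling called genes of each list per comparison, and the 5 genes nearest to Srf and to Acta2 are named. A further gene list that was fitted is not reported here. The members and lists were chosen with earlier results of these data known. Figures were made with Python 3.11.15, pandas 2.3.3, numpy 2.4.6 and matplotlib 3.10.9.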

Additional observations from a re-analysis of the deposited data

How the results depend on the processing

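In starved against fed shRenilla MEFs, 4 members were called, beside 17.0% of all tested genes. The count lay between 2 and 6 when 1 library was left out, beside 9.34% to 26.2% of all genes. It was 9 without both shBruce replicate 3 libraries (29.0% of all genes) or with only the groups compared (41.9%). Cnn2 lost its call in each fit that left out an shRenilla library (edgeR adjusted p from 0.0635 to 0.103). In shBruce MEFs the count of 4, beside 23.0% of all genes, stayed between 3 and 6, beside 8.11% to 32.7%. In FM and for the interaction it was 0 throughout, beside 0% to 5.11% of all genes in FM and 0% for the interaction. Between the lines in Starv it was 2, beside 23.9% of all genes. Over the fits that left out a library it lay between 0 and 5, beside 0% to 46.7%. There it was 1 with limma-voom (22.8% of all genes) or with length and GC trends removed (4.59%). It was 0 with only the groups compared (0%), and 7 without both replicate 3 libraries (50.2%). Vcl was not called there without shRenilla Starv replicate 1 (−0.62), shRenilla Starv replicate 2 (−0.62) or shBruce Starv replicate 2 (−0.63). Upper-quartile normalization raised the share of higher calls among all genes, to 1588 of 2229 from 1178 of 2061 in shRenilla and to 1991 of 2924 from 1506 of 2790 in shBruce MEFs. The causes were not tested.

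The correlations of deviations between libraries with the same replicate number lay between −0.46 and 0.16 and were not all over 0.1 in any comparison, so the numbers were not taken to pair the libraries. The highest between libraries with different numbers was 0.509, in the starvation comparison of shRenilla MEFs. In shBruce MEFs, replicate 3 of FM and of Starv correlated at 0.119, and 91 genes were under 50% of the other replicates in both. With the replicate block 1 member was called between the lines in Starv (Vcl), as were 15.9% of all genes, and 0 with the block and the length and GC trends removed, where 0.00823% of all genes were called. The block changed the other counts by less than 1.5 times.

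Of 1026 values of single members under an alternative, 34 changed sign, none of them called under the alternative. With length and GC trends removed, and with the replicate block added, Srf became −0.0674 and −0.0674 (FM), −0.15 and −0.15 (Starv) and −0.0860 and −0.0864 (interaction), Actg1 −0.0158 and −0.0145 (FM), and Acta2 −0.0466 and −0.0527 (interaction). In Starv, Tpm1 became −0.0415 with limma-voom, −0.0050 with no filter and −0.0161 with the block, and Myl9 0.0066 with DESeq2's test and 0.40 without both replicate 3 libraries, where the interaction of Tpm1 became 0.13. Leaving out 1 library, starvation in shBruce MEFs ranged from −0.67 to 0.0553 for Actb, −0.58 to 0.0515 for Tagln and −0.54 to 0.29 for Myl9. The line difference in Starv ranged from −0.17 to 0.26 for Tpm1 and −0.42 to 0.40 for Myl9. The interaction ranged from −0.0647 to 0.26 for Srf, −0.34 to 0.42 for Acta2, −0.0380 to 0.60 for Tagln and −0.26 to 0.17 for Tpm1.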
